A study of Mus musculus with 6 samples.

Results

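The genomic regions described here are the keratin gene clusters and the epidermal differentiation complex, in maps of contact between chromatin and the nuclear lamina in mouse embryonic fibroblasts (MEFs). They were chosen by position in the mm9 build of the mouse genome. The type I keratins and keratin-associated proteins (Krtap) were given the window on chromosome 11 from 98900000 to 100200000 (1.3 Mb). The type II keratins were given chromosome 15 from 101200000 to 102000000 (0.8 Mb), and the epidermal differentiation complex chromosome 3 from 92000000 to 94000000 (2 Mb). The 1 Mb on either side of each window served as its flanks. The unit of measurement is the GATC fragment, the stretch of DNA between neighbouring GATC sites. The windows held 3303, 2122 and 5625 fragments with their middle inside, 11050 of 6414976 in all.

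The cells were wild-type C57BL/6 MEFs, all of which carried a lentiviral shRNA, were selected with puromycin and then received a second lentivirus for Dam alone or for a Dam fusion. Dam is a bacterial adenine methyltransferase that marks GATC sites near it, and its fusion to a lamin marks DNA at the lamina (DamID). The maps after LmnA RNAi and LmnC RNAi used Dam-LmnB1, and the map after LmnB1 RNAi used Dam-LmnA, so the last differs from the others in target and fusion alike, which cannot be told apart. Each of the 3 maps rests on 1 Dam-only and 1 fusion library (6 libraries in all), with no replicates, so no test across samples was possible and no p-value is given. The series holds no map without lamin RNAi, so the effect of a depletion on its own cannot be read.

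Keratins are the intermediate filament proteins of epithelial cells, built as pairs of a type I and a type II chain. Krt5 and Krt14 pair in the basal layer of the epidermis, Krt1 and Krt10 in the layers above it, and Krt8 and Krt18 in simple epithelia, while many members of both clusters and the Krtap proteins build hair. The epidermal differentiation complex encodes proteins of the cornified layer, among them loricrin, involucrin, the Sprr and Lce families, filaggrin (Flg) and trichohyalin (Tchh), together with calcium-binding S100 proteins. Fibroblasts use vimentin filaments, and keratins and cornified envelope genes are epithelial genes not typical of them. Lamina-associated domains (LADs) are long stretches of chromatin at the nuclear envelope, mostly gene-poor or silent.

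The gene content below is by name and order only, since the RefSeq table at hand is in the GRCm38.p6 build and no position was carried over to mm9. No gene was thus given a value, and the match of the windows to their gene clusters rests on the rule. RefSeq lists 50 genes with a symbol beginning with Krt on chromosome 11, from Krt222 to Krt42, of which 23 are Krtap genes. On chromosome 15 it lists 27 from Krt80 to Krt18, 26 of them protein-coding. On chromosome 3 there are 63 genes of the epidermal differentiation families from S100a1 to S100a10, with 17 Sprr, 21 Lce and 15 S100a names. A listed gene may lie outside its window, most of all at the ends of a list, where the S100a names stand on chromosome 3.

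What DamID can read of a gene depends on its GATC sites, and 3 promoters, 1 per cluster, are shown for this reason. Each is the 250 bases before the start in the RefSeq promoter table (GRCm38.p6, not mm9), printed 5′ to 3′ on the gene's strand with GATC in capitals. GATC is its own reverse complement, so a search of 1 strand finds the sites of both. The Krt14 stretch lies on the minus strand at chr11:100206031-100206280, that of Krt5 on the minus strand at chr15:101712906-101713155, and that of Flg on the plus strand at chr3:93273296-93273545.
Krt14: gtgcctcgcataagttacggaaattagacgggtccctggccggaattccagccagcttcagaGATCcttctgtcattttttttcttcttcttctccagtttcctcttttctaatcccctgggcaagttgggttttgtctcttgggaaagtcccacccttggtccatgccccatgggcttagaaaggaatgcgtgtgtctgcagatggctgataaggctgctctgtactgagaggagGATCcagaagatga
Krt5: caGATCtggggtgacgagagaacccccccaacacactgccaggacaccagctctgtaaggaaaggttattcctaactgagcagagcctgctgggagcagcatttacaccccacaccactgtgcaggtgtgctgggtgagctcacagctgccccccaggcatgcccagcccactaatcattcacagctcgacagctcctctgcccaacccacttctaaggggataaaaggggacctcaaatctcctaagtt
Flg: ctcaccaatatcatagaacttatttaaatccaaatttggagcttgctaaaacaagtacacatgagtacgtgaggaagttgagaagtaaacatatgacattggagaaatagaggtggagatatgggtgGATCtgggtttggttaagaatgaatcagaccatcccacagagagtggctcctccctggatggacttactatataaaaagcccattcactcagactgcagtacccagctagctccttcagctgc
The Krt14 stretch holds 2 GATC sites, and those of Krt5 and Flg hold 1 each. Of the table's promoters of type I keratin and Krtap genes, 13 of 42 (31.0%) held a GATC in these 250 bases. For the keratin genes listed on chromosome 15 this was 11 of 16 (68.8%), and for the genes listed on chromosome 3 it was 33 of 59 (55.9%). For all promoters of the RefSeq table it was 13763 of 32851 (41.9%). The table held a promoter for 41, 16 and 55 of the listed genes. Over whole windows the site density was near that of the genome, with medians of 249, 264 and 271.5 fragments per 100 kb bin against 247. Bins of the epidermal differentiation complex ran from 214 to 422 fragments, and its dense stretches are described below.

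The signal is log2 of fusion over Dam-only reads, plus a constant for each map (-0.34, 0.21 and -0.15 after LmnA, LmnC and LmnB1 RNAi). Higher values mean relatively more fusion reads. A fragment with equal reads takes the constant of its map, so 0 is not a neutral point shared by the maps. Means weight fragments by length, and the SE over fragments covers variation within 1 pair of libraries, not between cultures. It takes fragments as independent, although neighbours share LADs and gaps, so it is likely too small and serves as no test. A fragment read in 1 library of a map and not in the other takes an extreme value (beyond 12 on either side of 0). Such single-library fragments weigh heavily, so means without them stand beside the main values. Library totals are unknown because ratios were deposited. Between the genome means of the maps there is an offset (0.72, -0.28 and 0.26 in the LmnA, LmnC and LmnB1 RNAi maps), so levels are read against the genome in the same map. Where 3 values follow each other with no other order given, they are from the maps in this order.

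All 3 windows held LADs in all 3 maps, and the epidermal differentiation complex lay almost wholly in them. Its share of fragment length in LADs was 96.1%, 92.1% and 91.9% in the LmnA, LmnC and LmnB1 RNAi maps. The type I keratin window had 68.3%, 63.9% and 64.5% in the same order, and the type II keratin window 67.0%, 68.5% and 58.1%. The genome shares were 67.9%, 58.9% and 59.8%, so the epidermal differentiation complex was well above them in each map. The keratin windows lay nearer to them, with the widest gap in the type II window after LmnC RNAi.

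Counted in 100 kb bins with at least 50% of their fragment length in LADs, the epidermal differentiation complex had 19 of 20 bins in each map. The background over 25588 bins of the genome was 68.2%, 59.2% and 60.1%. The type I keratin window had 10, 8 and 9 of 13 bins in that order, and the type II keratin window 5 of 8 in each map. Of these bins, 8, 5 and 19 were in LADs of all maps in type I, type II and the epidermal differentiation complex, beside 55.2% of genome bins. Another 3 type I bins passed in 1 map each, 2 after LmnA RNAi and 1 after LmnB1 RNAi, and each held a LAD border of at least 1 map.

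Mean log2 ratios put the epidermal differentiation complex highest of the clusters in every map. They were 2.02 ± 0.08, 1.53 ± 0.08 and 1.63 ± 0.07 (SE, n = 5625 fragments). The type I keratin window had 0.74 ± 0.09, -0.04 ± 0.09 and 0.32 ± 0.08 (n = 3303), and the type II keratin window 0.60 ± 0.12, -0.09 ± 0.12 and -0.0015 ± 0.11 (n = 2122). The keratin windows lay nearer to each other than to the epidermal differentiation complex in each map. Without single-library fragments the epidermal differentiation complex stayed highest, at 0.76, 0.62 and 0.52, against 0.23, -0.06 and 0.014 for type I and 0.26, 0.0048 and -0.11 for type II. The median bin of the epidermal differentiation complex had 2.27, 2.05 and 1.87, with 70.2%, 83.7% and 73.3% of genome bins lower. Medians were 2.02, 1.22 and 0.70 in the type II window (63.6%, 64.3% and 51.2% lower) and 0.94, 0.54 and 0.65 in the type I window (45.1%, 54.5% and 50.3% lower). The type II median lay above its mean in each map, as its bins fall into high ones in the LAD and very low ones beyond it.

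The keratin windows stood out from their surroundings, whereas the epidermal differentiation complex did so on 1 side only. The type I window exceeded its flanks by 3.32 ± 0.12, 3.37 ± 0.13 and 2.54 ± 0.11 (1.64, 1.29 and 1.10 without single-library fragments). Its left flank had -2.11, -3.06 and -2.09 and its right flank -3.06, -3.75 and -2.35, so both sides were far below the cluster in each map. The type I flanks held no LAD after LmnC or LmnB1 RNAi, and 1 of 181 kb after LmnA RNAi. The whole of chromosome 11 averaged 0.02, -0.87 and -0.34, below the cluster in each map.

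For the type II window the excess over both flanks was 2.07 ± 0.14, 1.88 ± 0.14 and 1.28 ± 0.13 in the same order (1.17, 0.83 and 0.54 without single-library fragments). Its left flank, with LADs of its own, had -0.82, -1.35 and -0.79, and its right flank -2.13, -2.58 and -1.77. The epidermal differentiation complex lay below its left flank (2.93, 2.61 and 2.63, wholly in LADs) and above its right flank (-1.05, -2.12 and -1.47). Its excess over both flanks together was 1.08 ± 0.11, 1.29 ± 0.12 and 1.05 ± 0.10 (0.55, 0.46 and 0.42 without single-library fragments). Its left border is therefore no LAD border, and the window opens inside a LAD that began at chromosome 3 position 90473140, 90520376 and 90511211 in the 3 lists.

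**Figure D1:**
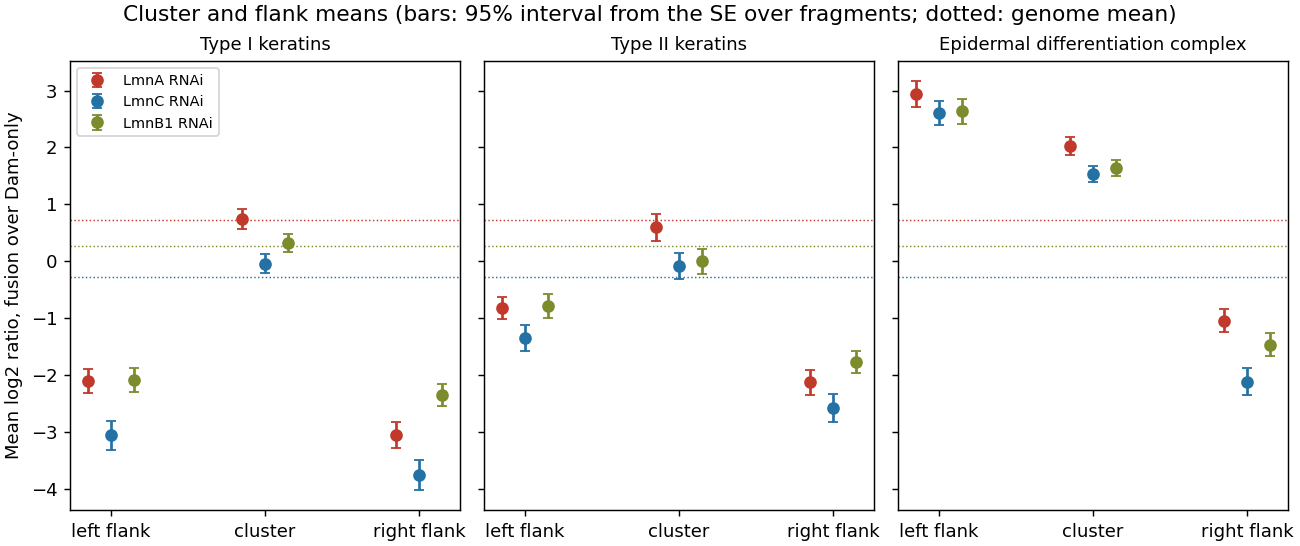
Mean log2 ratio of fusion over Dam-only (vertical axis) in the left flank, cluster and right flank of the 3 windows, 1 point per map with a 95% interval from the SE over fragments; dotted lines are genome means. Keratin clusters lie above both flanks, and the epidermal differentiation complex lies between a higher left flank (2.93, 2.61 and 2.63) and a lower right flank.

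Reads of single-library fragments can be recovered as whole numbers, which gives a view of the same windows that does not depend on the log. In the type I window these fragments held 1313 fusion and 614 Dam-only reads after LmnA RNAi, a fusion share of 68.1% (95% exact Clopper-Pearson interval 66.0 to 70.2, for counting error only, as PCR reads are not independent molecules). That is beside 67.8% in the genome, and the share in the flanks was 10.3%. After LmnC RNAi the share was 44.7% (912 and 1126 reads, genome 41.0%) and after LmnB1 RNAi 53.1% (958 and 845 reads, genome 52.2%). By this count too the type I window was near the genome level and its flanks far below it.

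The type II window had 56.1%, 42.1% and 42.4% fusion reads in the order LmnA, LmnC and LmnB1 RNAi, below the genome share in the first and the last. In the epidermal differentiation complex the shares were 85.1% (3924 and 688 reads), 75.1% (2972 and 987) and 80.7% (2692 and 643). Each was above the genome share of its map, and below the share of its left flank (94.3%, 89.2% and 91.1%).

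The type I window was split by a stretch outside LADs that all 3 maps had in common. After LmnA RNAi it held a LAD from 99107040 to 99372947 (266 kb) and one from 99528237 to 100150849 (623 kb). After LmnC RNAi these were 99093112 to 99315070 (222 kb) and 99532679 to 100141494 (609 kb). The second LAD carried more signal than the first, with 1.97 ± 0.13 against 0.88 ± 0.18 after LmnA RNAi and 1.51 ± 0.12 against 0.40 ± 0.20 after LmnC RNAi.

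After LmnB1 RNAi the first LAD ran from 99011289 to 99294248 (283 kb), starting 95.8 kb before that of the LmnA RNAi map. The second was in pieces there, from 99533318 to 99984095 (451 kb) and from 100037242 to 100142625 (105 kb). Sequence between these pieces (53.1 kb, 120 fragments) had 0.38 ± 0.32, -0.66 ± 0.52 and -1.31 ± 0.47 in the LmnA, LmnC and LmnB1 RNAi maps. It was called outside LADs in the LmnB1 RNAi map alone. The maps came close without single-library fragments (0.19, -0.18 and -0.13).

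The common interior gap covered 155 kb in the LmnA RNAi list (99372948 to 99528236), 218 kb in that of LmnC RNAi (99315071 to 99532678) and 239 kb in that of LmnB1 RNAi (99294249 to 99533317). Its right end lay within 5.08 kb in all maps, and its left end shifted by up to 78.7 kb. In the stretch outside LADs after LmnA RNAi the mean was -0.70 ± 0.27, -2.02 ± 0.26 and -0.70 ± 0.20, lowest in the LmnC RNAi map. All 3 stayed below 0 without single-library fragments (-0.57, -0.96 and -0.67). The 100 kb bin at the left end of the gap, from 99300001 to 99400000, had the largest excess after LmnA RNAi over LmnC RNAi of the window (0.51 ± 0.28 against -1.06 ± 0.26). Without single-library fragments this bin had 0.13 against -0.36. The share of the bin in a LAD was 72.9%, 15% and 0%.

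Type II keratins had a single LAD in each map, with a border on the right that hardly moved. It ran from 101264087 to 101800345 (536 kb) in the LmnA RNAi list, from 101252098 to 101800458 (548 kb) in that of LmnC RNAi and from 101333401 to 101797968 (465 kb) in that of LmnB1 RNAi. The right ends of the first 2 were 0.113 kb apart, and that after LmnB1 RNAi lay 2.38 kb before the first. The left ends spread over 81.3 kb. Each LAD had a mean of 2.40 ± 0.13, 1.59 ± 0.12 and 1.56 ± 0.14 in its own map (0.96, 0.65 and 0.47 without single-library fragments).

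Beyond that border the rest of the window (199.7 kb in the LmnA RNAi list) lay in no LAD, and it held the lowest bin of the 3 clusters in each map. Its last bin, from 101900001 to 102000000, had -4.81 ± 0.45, -5.19 ± 0.47 and -3.79 ± 0.39. Only 0.0508%, 0.442% and 0.766% of genome bins were lower. The highest bin, from 101400001 to 101500000, lay inside the LAD and had 3.15 ± 0.34, 2.15 ± 0.29 and 2.20 ± 0.36. The type II window thus held values from near the bottom of the genome to its upper tail, where 93.9%, 86.2% and 83.0% of bins were lower.

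The signal dropped steeply at both keratin borders on the right. Mean signal in the 50 kb inside the type II border exceeded that in the 50 kb outside by 5.33, 5.89 and 4.29. The last type I border, at 100150849, 100141494 and 100142625, had steps of 4.33, 6.62 and 4.22. Medians over all LAD borders were 2.78 (3489 borders), 2.86 (3572) and 2.61 (3284), and 90.5% to 99.5% of borders had smaller steps than these. LAD borders and signal come from the same maps, so a step is built in, and only its size is described. At the left end of the clusters the steps were smaller, from 2.23 to 2.52 for type I and 0.93 to 2.18 for type II. The first type I LAD ended on the right with steps of 0.62, 1.57 and 2.13. Steep borders were not particular to the keratin windows, as those at the gaps of the epidermal differentiation complex had steps from 3.58 to 5.07.

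**Figure D2:**
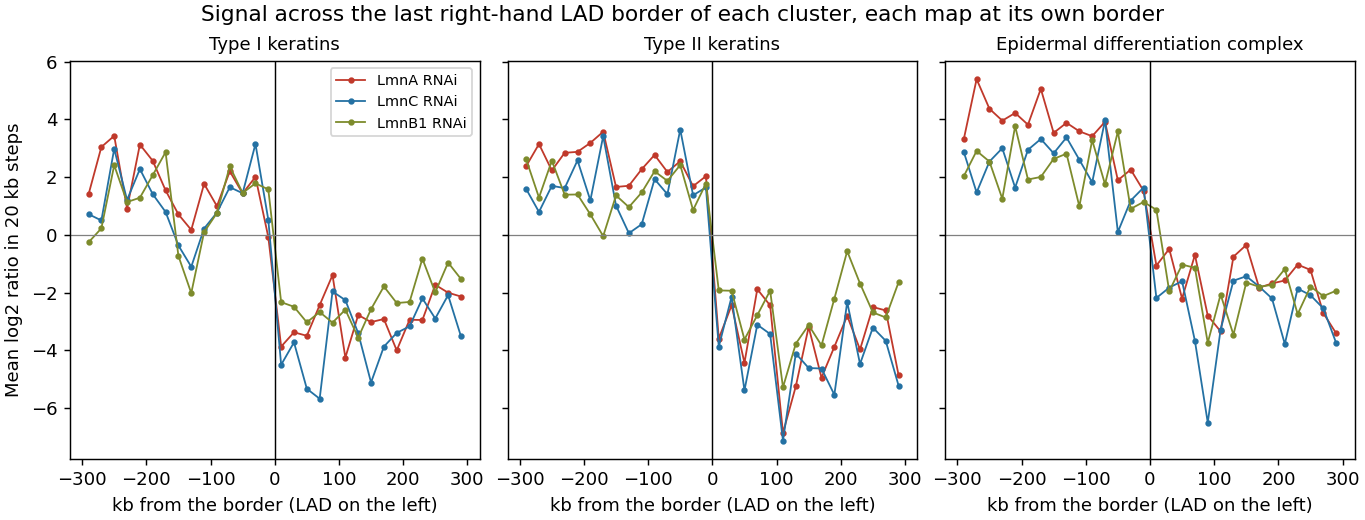
Mean log2 ratio in 20 kb steps (vertical axis) against distance in kb from the last LAD border on the right of each cluster, with the LAD on the left of 0 and 1 line per map. The first step outside lies between -4.50 and -1.92 in the keratin clusters and between -2.19 and 0.87 in the epidermal differentiation complex.

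The epidermal differentiation complex held a long LAD with narrow gaps. After LmnA RNAi, LADs ran to 93297473 and from 93374772 to 94169175. After LmnC RNAi they ran to 92780386, from 92833687 to 93318878 (485 kb) and from 93424078 to 94162271, and after LmnB1 RNAi to 92790663, from 92837167 to 93297473 (460 kb) and from 93412393 to 94140542. A gap of 53.3 kb after LmnC RNAi and 46.5 kb after LmnB1 RNAi was thus not called after LmnA RNAi. In the span of the LmnC RNAi gap the mean was -1.02 ± 0.41, -1.76 ± 0.40 and -1.80 ± 0.35, below 0 in all maps. The signal dipped here after LmnA RNAi as well, although its list bridges the stretch.

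The other gap was shared by all maps and overlapped the lowest bin of the complex (93300001 to 93400000). It measured 77.3 kb in the LmnA RNAi list (93297474 to 93374771), 105 kb in that of LmnC RNAi (93318879 to 93424077) and 115 kb in that of LmnB1 RNAi (93297474 to 93412392). Its left end was at the same base after LmnA and LmnB1 RNAi. Within the LmnA RNAi gap the mean was -3.43 ± 0.39, -3.37 ± 0.38 and -3.23 ± 0.34 in the order LmnA, LmnC and LmnB1 RNAi (n = 194 fragments). These 3 values differ by less than 1 SE, and without single-library fragments they were -2.19, -2.26 and -1.88.

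Beyond this gap the signal was high. The highest bin of the complex, from 93700001 to 93800000, had 4.22 ± 0.37, 2.88 ± 0.33 and 3.24 ± 0.35. Of genome bins, 99.9% were below the window's highest bin after LmnA RNAi. At the other end of the window, bins from 92000001 to 92400000 were modest, ranging from -0.55 to 0.88 after LmnA RNAi while called in LADs throughout.

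**Figure D3:**
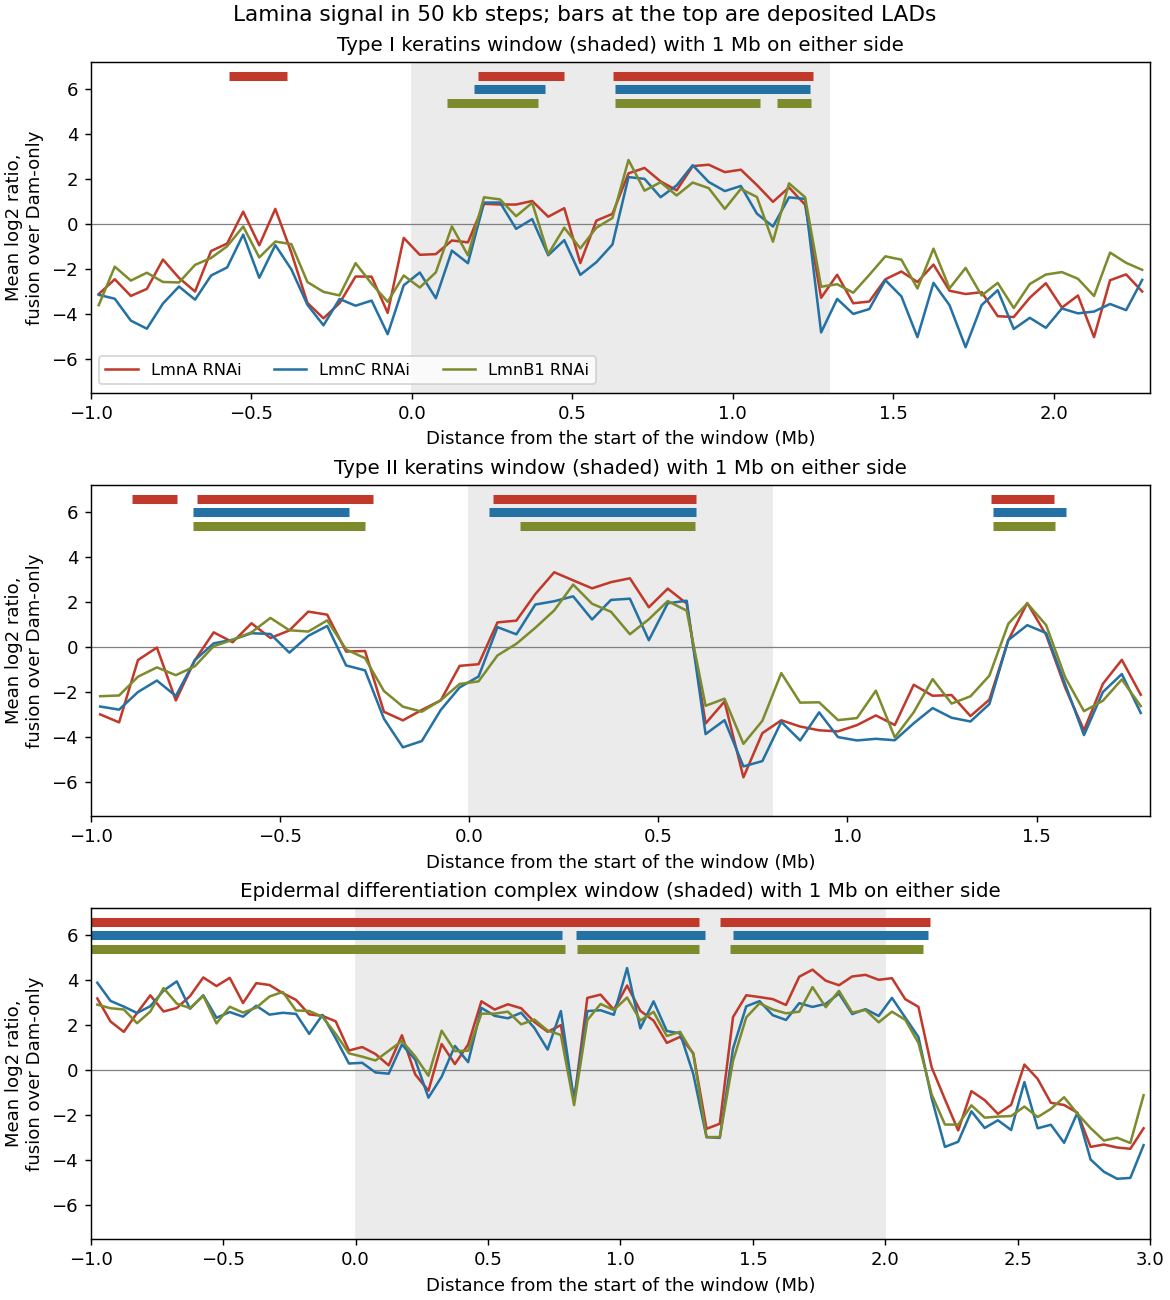
Mean log2 ratio in 50 kb steps (vertical axis) against distance in Mb from the start of each window, shaded, with 1 Mb of flank on each side; lines are the 3 maps and bars at the top their deposited LADs. The interior gap of the type I window, the right border of the type II window and the gap after 1.3 Mb in the epidermal differentiation complex recur in all maps.

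Single fragments show what these ratios rest on, as examples only, since LADs and fragments come from the same maps. For each window, map and library the deepest such fragment was taken, 9 for the fusion and 9 for Dam alone. All 9 fusion-only fragments lay in LADs of all 3 maps, which hold 54.8% of the genome's fragment length. Of the 9 Dam-only choices 8 lay in LADs of no map (29.9% of the genome's length), with the same fragment chosen in the LmnA and LmnC RNAi maps for the type II window and for the epidermal differentiation complex. Dam that is not tethered methylates open chromatin more readily, which is why these reads serve as the background of each ratio.

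In the type I interior gap, the fragment from 99441408 to 99441712 had Dam-only reads and none from the fusion in every map (1, 42 and 22). In the shared gap of the epidermal differentiation complex, the fragment from 93358017 to 93358331 had 66 Dam-only reads after LmnA RNAi and 42 after LmnC RNAi, with none from the fusion. Beyond the type II border, the fragment from 101921816 to 101922115 had 76 and 84 in the same maps. In contrast, the fragment from 93136822 to 93137207 of the complex was read by the fusion alone in all maps, with 10, 27 and 34 reads.

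The same fusion, Dam-LmnB1, was used after LmnA and LmnC RNAi, so this pair bears on whether depletion of lamin A or of lamin C, splice products of Lmna, goes with another lamina contact of these clusters. The signal after LmnA RNAi was higher by 0.78 ± 0.12 in the type I window, 0.69 ± 0.17 in the type II window and 0.49 ± 0.11 in the epidermal differentiation complex. These differences exceed the SE over fragments, but the median difference over genome bins was 0.95, so all 3 windows were below the offset of the whole map. With the maps centred on their median bins the signs turned (-0.37, -0.46 and -0.66), and so did that of the genome's median difference (-0.20). Without single-library fragments the windows had 0.29, 0.25 and 0.14, beside a genome median of 0.27.

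A step of 0.5 toward LmnA RNAi was passed by 76.2% of the genome's 100 kb bins, and 0.813% passed it toward LmnC RNAi. The type I window had 11 of 13 higher and 0 lower, the type II window 5 of 8 and 0, and the epidermal differentiation complex 7 of 20 and 1. Its 35.0% was the one share far under the background. With 50 kb bins 20 of 40 were higher and 6 lower, but no genome share is given at that size. After centring, 0 bins were higher in each window and 4 of 13, 5 of 8 and 14 of 20 were lower, beside 16.4% higher and 32.1% lower in the genome. Without single-library fragments no bin of the windows passed 0.5 in either direction, beside 21.7% higher and 0.0743% lower in the genome.

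The difference was not even along the epidermal differentiation complex. It was largest from 93900001 to 94000000 (4.12 ± 0.36 against 2.56 ± 0.30) and smallest from 93100001 to 93200000, where LmnC RNAi was higher (2.39 ± 0.31 against 1.70 ± 0.29). That bin is the only one of the complex past 0.5 in this direction, and its difference of -0.69 ± 0.43 is less than 2 SE. It shrank to -0.11 without single-library fragments. By the same measure the bin with the largest difference had 0.25, beside a genome median of 0.27. In the last LAD of the complex the means of these maps were 3.42 ± 0.13 and 2.35 ± 0.13, against 2.33 ± 0.07 and 1.98 ± 0.06 in the LAD before the shared gap, both in the spans of the LmnA RNAi list. Both LADs reach outside the window, which holds 625 of 794 kb of the last and 1297 of 2824 kb of the other. Without single-library fragments the means were 1.21 and 0.97 in the last LAD, against 0.97 and 0.89 before the gap.

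**Figure D4:**
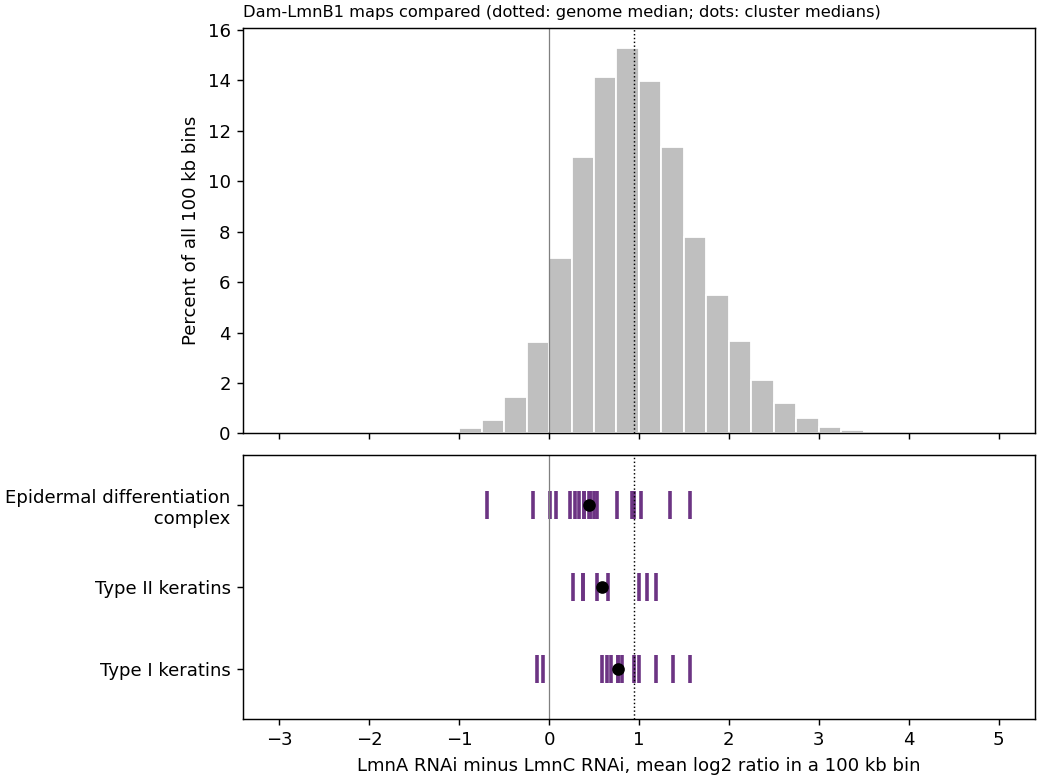
Upper panel, share of all 100 kb bins of the genome by their LmnA RNAi minus LmnC RNAi difference in mean log2 ratio; lower panel, the bins of each cluster as ticks with their median as a dot. Cluster medians of 0.77, 0.59 and 0.45 lie left of the dotted genome median at 0.95.

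By LAD class the main values of the clusters did not follow 1 pattern. A link to the lists is partly built in, since LADs and signal come from the same maps. In type I sequence in LADs of all maps (57.1% of its fragment length) the LmnA RNAi minus LmnC RNAi difference was 0.44 ± 0.16, against 1.38 ± 0.32 in sequence in LADs of 1 map (11.7%). The genome had 0.79 and 1.66 in these classes. In the epidermal differentiation complex, sequence in LADs of all maps made up 90.8% and had 0.46 ± 0.11. In the type II window the LADs of all maps (58.1%) had 0.85 ± 0.20, near the genome value. Without single-library fragments, this class had 0.26 in type I, 0.29 in type II and 0.14 in the complex, against 0.26 in the genome. The keratin windows were then close to each other and to the genome. Type I sequence in LADs of 1 map had 0.47 by this measure, against 0.56 in the genome.

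Fragment length in LADs of only 1 list made up 11.7% of the type I window, 1.51% of the type II window and 5.11% of the epidermal differentiation complex, beside 8.47% of the genome. In the type I window 70.5 kb was in LADs after LmnA RNAi alone and 81.8 kb after LmnB1 RNAi alone, with 0 kb after LmnC RNAi alone. In the type II window the LmnC RNAi list alone held 12.1 kb, and the epidermal differentiation complex had 80.6 kb after LmnA RNAi alone and 21.4 kb after LmnC RNAi alone. Sequence in LADs of all but the LmnB1 RNAi map measured 74.6 kb in type I and 71.7 kb in type II. In the type II window the LmnB1 RNAi LAD lay wholly inside those of the other maps.

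Comparisons with the LmnB1 RNAi map join the target and the fusion, and the LmnA RNAi and LmnC RNAi maps are each used in 2 of the 3 pairs. LmnA RNAi was higher than LmnB1 RNAi by 0.42 ± 0.12 in type I, 0.60 ± 0.16 in type II and 0.39 ± 0.11 in the epidermal differentiation complex, beside a genome median of 0.48. Bins past 0.5 numbered 6 of 13, 5 of 8 and 6 of 20 higher (48.8% in the genome) and 0, 1 and 2 lower (8.47%). After centring these were 2, 2 and 2 higher (14.4%) and 5, 2 and 5 lower (32.9%). Without single-library fragments 1, 4 and 3 bins were higher (16.2% in the genome) and 0, 1 and 0 lower (2.45%). Over the span of the LmnB1 RNAi LAD in the type II window the means of these maps were 2.57 ± 0.14 and 1.56 ± 0.14.

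LmnC RNAi was lower than LmnB1 RNAi by 0.36 ± 0.12 in type I, a difference of -0.36. In type II the difference was -0.09 ± 0.16 and in the epidermal differentiation complex -0.10 ± 0.10, both less than 2 SE from 0. The genome median was -0.52. Bins numbered 2 of 13, 2 of 8 and 1 of 20 higher (4.74% in the genome) and 5, 2 and 3 lower (51.3%). After centring these were 3, 4 and 8 higher (19.9%) and 2, 2 and 0 lower (24.6%). Without single-library fragments 0 were higher in each window (0.625% in the genome) and 0, 1 and 0 lower (9.97%). The flanks of type I differed by -1.18, those of type II by -0.69 and those of the epidermal differentiation complex by -0.34. Genome sequence in LADs of no map had -3.15 after LmnC RNAi and -2.18 after LmnB1 RNAi. A less low LmnB1 RNAi map outside LADs was thus not particular to these flanks.

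A tandem array of short GATC fragments lies in the epidermal differentiation complex and limits what can be measured there. Proteins such as filaggrin, hornerin and trichohyalin are encoded in part by tandem repeats, and which gene carries this array was not determined. From 93010001 to 93020000 there were 128 fragments in 10 kb, 1 of only 2 such stretches over 100 in the genome, where the median stretch of the windows held 26. Of 10 kb stretches, 5 of 410 in the windows held over 50 fragments, all in this complex, and 0.198% of 256008 in the genome.

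Within 30 kb there were 69 fragments of 9 bp, 64 of 63 bp and 40 of 153 bp. Successive 63 bp fragments, from 93002302 to 93023628, were spaced by 234 bp in 40 of 63 intervals and by 240 bp in 11. The array is thus a repeat of near-constant length. A second dense stretch, from 93120001 to 93140000, held 57 and 82 fragments in its successive 10 kb, with lengths of 12, 21 and 69 bp the most frequent.

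Most fragments of the array held the constant of their map, the value of a fragment with no reads at all or with as many from the fusion as from Dam alone. These were 63.6%, 62.8% and 72.8%, against 26.7%, 25.3% and 29.0% in the rest of the window. How reads with several matching positions were treated was not given in the sources used here, and its part in these values was not tested. The mean was 4.32 ± 0.65, 5.23 ± 0.68 and 3.92 ± 0.64 from 250 fragments, against 1.99 ± 0.08, 1.48 ± 0.08 and 1.60 ± 0.07 in the rest. The bin that holds the array, from 93000001 to 93100000, is the one with the most fragments of the window (422).

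**Figure D5:**
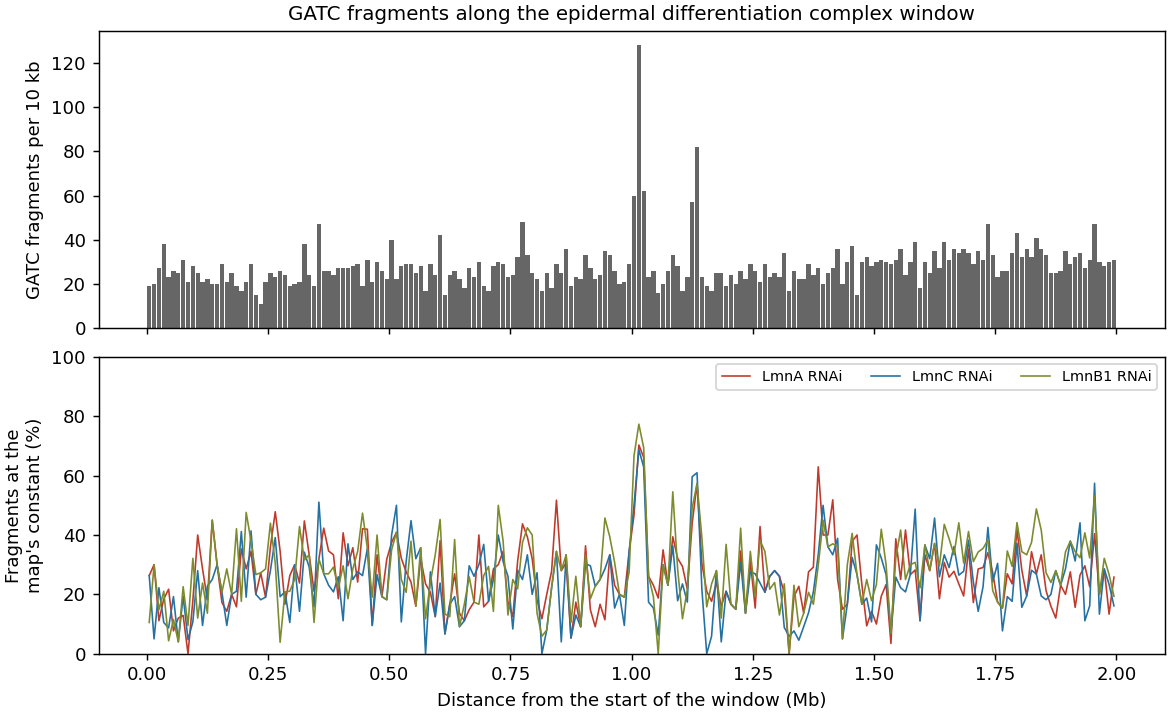
Upper panel, GATC fragments per 10 kb along the epidermal differentiation complex window, by distance in Mb from its start; lower panel, percent of these fragments at the constant of each map. In the stretch with 128 fragments just after 1 Mb, 70.3%, 68.8% and 77.3% of fragments are at the constant in the LmnA, LmnC and LmnB1 RNAi maps.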

How the data were processed

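Signal was deposited by the authors as log2 values, 1 for each GATC fragment, and LADs as lists of start and end in bp. Reads had been aligned with Bowtie to mm9, per the submitters' processing notes. Versions, read filters, the ratio step and the LAD caller were not given in the sources used here. From the steps of the deposited log2 values, each is the log2 ratio of fusion to Dam-only reads after adding 1e-05, shifted by a constant (-0.34, 0.21 and -0.15 for LmnA, LmnC and LmnB1 RNAi). Sizes above 12 were read as 0 reads in 1 library. In the windows, reads recovered from such fragments (up to 100) were whole within 0.02 in 100% of values.

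Fragments on chromosomes 1 to 19, X and Y were assigned by their middle, averaged with length weights (Python 3.11.15, numpy 2.4.6, pandas 2.3.3, scipy 1.17.1) and binned in 100 kb, keeping bins covered over at least 50%. The script was tested on simulated data. Starts are printed 1-based, taking the lists as BED. Named regions were every LAD overlapping a window, every stretch of at least 25 kb of a window outside LADs, and the bins with the highest and lowest mean over maps and the largest and smallest LmnA RNAi minus LmnC RNAi difference. Deepest fragments, dense stretches and LAD classes were described after their values were seen. Windows, gene lists and rules were chosen with earlier results of these data known. Alternatives left out single-library fragments or those at the constant, weighted fragments equally, halved the flank, centred the maps, and changed the step, the bin size, the cover and the LAD measure.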

Additional observations from a re-analysis of the deposited data

How the results depend on the processing

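Of 147 alternative values, 68 stayed within the interval of the reported value (or within 1.5 times for shares of bins). Another 72 moved further, and 7 turned sign from a reported value over 2 SE from 0. Values nearer 0 that turned sign stand under the other counts. Shares of bins here add bins higher and bins lower, so a change of direction alone is not counted as a move. In the type II window LmnA RNAi minus LmnC RNAi kept 62.5% after centring, although its 5 bins went from higher to lower. No paired analysis was possible because each group holds 1 library. LAD shares stayed within the binomial interval over bins with either alternative, but this interval is wide with so few bins. The type I share after LmnB1 RNAi went from 64.5% to 56.4% with LADs of at least 200 kb, which leaves out its 105 kb LAD. No other LAD of the windows is under 200 kb, so the remaining shares could not change with this limit. The share of window bp could hardly differ, as fragments cover 99.3%, 99.2% and 99.2% of the windows. The stricter cover kept every bin of the windows, so shares of bins could not change with it. Values of these settings, and the LAD shares that could not change, stand among the 68 and say nothing on stability. Within its limit too was the level of the epidermal differentiation complex without the 30 kb tandem array, an alternative chosen after seeing the data. Values below follow the order type I, type II and epidermal differentiation complex, and within each LmnA, LmnC and LmnB1 RNAi where all moved. Centring sets each map's median bin to 0 but leaves genome median differences of -0.20 (LmnA RNAi minus LmnC RNAi), -0.19 (LmnA RNAi minus LmnB1 RNAi) and -0.038 (LmnC RNAi minus LmnB1 RNAi). For the other settings the cause was not tested.

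Centred on the median bin, LmnA RNAi minus LmnC RNAi was -0.37, -0.46 and -0.66, LmnA RNAi minus LmnB1 RNAi -0.25, -0.071 and -0.28, and LmnC RNAi minus LmnB1 RNAi 0.12, 0.39 and 0.38. All turned sign; in the last 2 the reported value was within 2 SE of 0. Shares of bins past 0.5 became 30.8% (type I) and 70.0% (epidermal differentiation complex) for LmnA RNAi minus LmnC RNAi, and 40.0% for LmnC RNAi minus LmnB1 RNAi in the latter.

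Without single-library fragments, levels were 0.23 and 0.014 in type I (LmnA and LmnB1 RNAi), 0.26 in type II (LmnA RNAi) and 0.76, 0.62 and 0.52 in the epidermal differentiation complex. Cluster minus flank was 1.64, 1.29 and 1.10, then 1.17, 0.83 and 0.54, then 0.55, 0.46 and 0.42. LmnA RNAi minus LmnC RNAi was 0.29, 0.25 and 0.14, and LmnC RNAi minus LmnB1 RNAi -0.075 in type I. Shares of bins past 0.5 were 0%, 7.69% and 0% in type I for the pairs LmnA to LmnC, LmnA to LmnB1 and LmnC to LmnB1, then 0% (LmnA to LmnC) and 12.5% (LmnC to LmnB1) in type II, and 0%, 15% and 0% in the epidermal differentiation complex. Without fragments at the constant, the latter had 2.27 (LmnA RNAi) and 1.85 (LmnB1 RNAi).

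With equal weight per fragment, levels were 1.71, 0.60 and 0.76 in type I, 1.33 and 0.49 in type II (LmnA and LmnC RNAi) and 3.37, 2.97 and 2.68 in the epidermal differentiation complex. Cluster minus flank was 5.02, 4.91 and 4.12, then 2.97, 2.78 and 2.02, then 1.62, 1.90 and 1.65. LmnA RNAi minus LmnC RNAi was 1.11 in type I, LmnA RNAi minus LmnB1 RNAi 0.95, 1.22 and 0.69, and LmnC RNAi minus LmnB1 RNAi 0.38 in type II and 0.29 in the epidermal differentiation complex, above 0 where the length-weighted values were below it.

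With a flank of 500 kb, cluster minus flank was 2.55, 2.57 and 1.74 in type II and 0.54, 0.99 and 0.78 in the epidermal differentiation complex. With a step of 1, shares of bins were 23.1%, 23.1% and 15.4% in type I (pairs in the order above), 37.5% and 25% in type II (LmnA to LmnC, LmnC to LmnB1), and 15%, 10.0% and 0% in the epidermal differentiation complex. Bins of 50 kb gave 65.0% there for LmnA RNAi minus LmnC RNAi (20 of 40 higher and 6 lower). No genome share is given for the step of 1 or for bins of 50 kb. Depth per fragment (a median of 1 or 2 reads in single-library fragments) leaves single fragments and 10 kb stretches imprecise.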
